A study of Homo sapiens with 24 samples.

Results

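Messenger RNA levels of 10 genes of the BACH1 and NRF2 oxidative stress response were followed through C-Raf overexpression and metastasis in human prostate epithelial cell lines. The genes were chosen by symbol from the 60448 symbols that each deposited table lists, and all 10 were found and counted as protein-coding. They are the transcription factors BACH1 and NFE2L2 (which encodes NRF2), the NRF2 inhibitor KEAP1, and 7 genes named as antioxidant targets, HMOX1, NQO1, GCLC, GCLM, TXNRD1, SRXN1 and SLC7A11. The list is by name and sets no threshold on a measured value.

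NRF2 is a transcription factor that pairs with small MAF proteins and activates genes through antioxidant response elements in their regulatory DNA. In unstressed cells KEAP1 presents NRF2 to a CUL3 ubiquitin ligase, which marks it for degradation, so that NRF2 is controlled largely at the protein level and its mRNA need not follow its activity. BACH1 pairs with the same small MAF proteins, binds overlapping sites and represses them, with HMOX1 as its best known target, and heme binding releases and destabilizes BACH1.

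Each cell line had a vector control, a C-Raf parental culture and lines derived from its C-Raf metastases. The cell lines were BPH-1, an SV40-immortalized line from benign prostatic hyperplasia grown in medium with serum (DMEM per the labels, RPMI per the study's methods), and RWPE-1, an HPV18-immortalized line grown in serum-free keratinocyte medium. The study's results describe firefly and Gaussia luciferase reporters in both cell lines, although its list of lines names the Gaussia reporter (sGluc) for BPH-1 lines only. Every group but vector control overexpressed non-mutated C-Raf. Metastasis-derived lines were cultured for about a week from tumors resected from immunodeficient NSG mice after intracardiac injection of C-Raf cells; such mice lack T, B and NK cells but keep their own stroma and myeloid cells. There were 3 libraries of vector control, 3 of C-Raf parental and 6 of metastasis-derived BPH-1 cells, and 1, 4 and 7 of RWPE-1. A pair of BPH-1 libraries shares the number R075, and in each of them title and treatment label name different sites of origin. They are called here by their titles, and no comparison used the site.

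The 21 libraries used for levels and tests held 20571582 to 42022376 protein-coding counts. The BPH-1 libraries titled bone R071, R074 and R075 held 111187 to 464769, were treated as low in depth and stand apart from every value below unless named, which leaves 3 BPH-1 metastasis-derived lines (R069, R072 and the line titled thymus R075). BPH-1 metastasis-derived libraries came in a table of their own, so in BPH-1 the table and the metastasis stage cannot be told apart, and no table holds both cell lines. In RWPE-1 the vector control, C-Raf replicate 1 and the metastasis-derived lines LN1A, LN1B and Spine shared a table, and the other libraries shared another. The labels do not say that libraries of a group came from separate cultures, so p values measure the spread between these libraries, which may be technical. As these are bulk RNA samples, fewer cells of a type and less RNA per cell cannot be told apart. The epithelial labels were met by all 7 epithelial markers examined, which had counts in each group and summed to at least 2938 CPM in every library. CPM are counts scaled to a common library size of protein-coding counts by TMM.

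Per kilobase of exon, which allows levels of different genes to be compared, TXNRD1, the selenoprotein that reduces thioredoxin, was the highest of the 10 genes in each BPH-1 vector control and C-Raf library (mean of 58.99 CPM per kilobase in vector control). Among the BPH-1 metastasis-derived lines TXNRD1 was highest only in thymus R075 (92.2 CPM per kilobase), and BACH1 was highest in R069 (23.9, against 19.4 for TXNRD1) and in R072 (27.9, against 10.4). In all 12 RWPE-1 libraries the highest was NQO1, a quinone reductase (58.54 in vector control). HMOX1, which encodes the heme-degrading enzyme heme oxygenase 1, was the lowest in all 21 libraries, with group means of 0.32 to 2.02 CPM per kilobase. BACH1 stood at rank 8 of the 10 genes in each BPH-1 vector control library and at rank 1 or 2 in the metastasis-derived lines, whereas NQO1 stood at rank 2 in vector control and at rank 7 to 9 in the metastasis-derived lines.

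**Figure D1:**
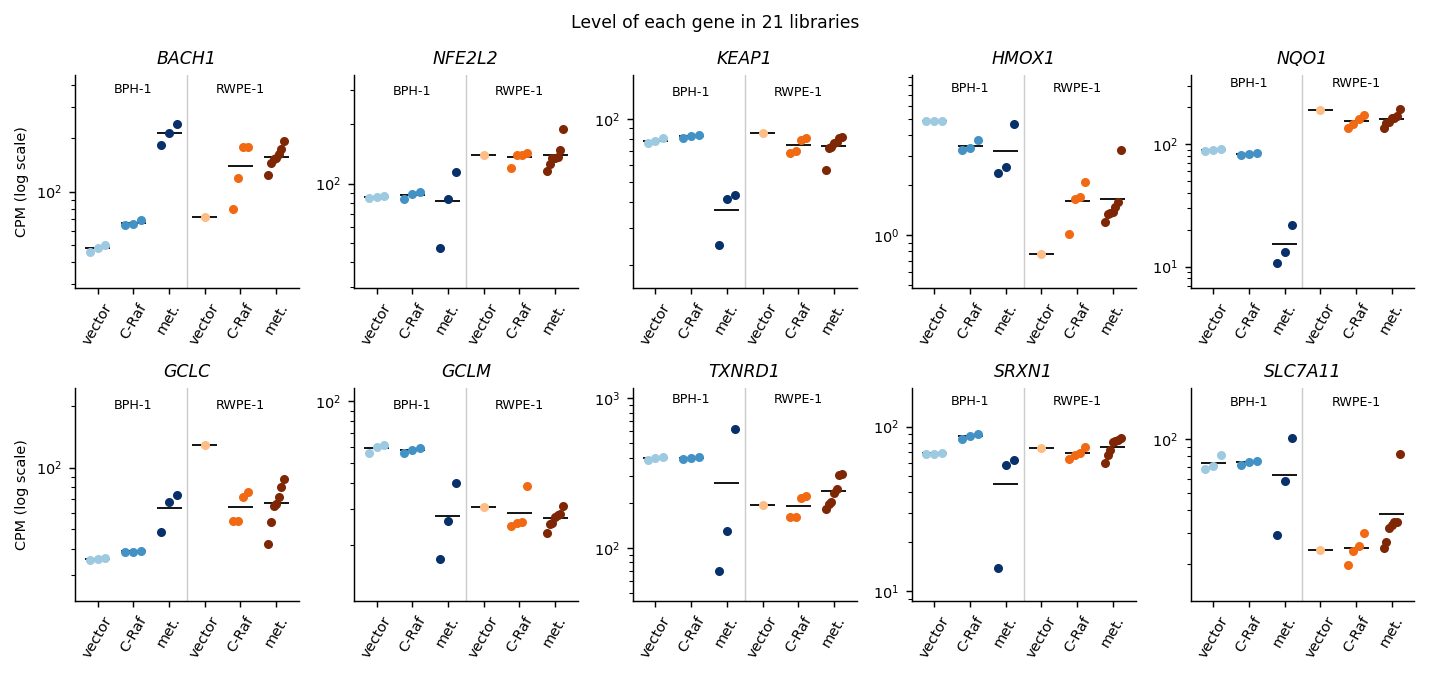
Level of each gene in 21 libraries, in CPM on a log axis, by cell line and stage (met., metastasis-derived). Points are libraries and bars are group means; NQO1 was lowest in the 3 BPH-1 metastasis-derived lines (10.67 to 21.99 CPM), which also had the highest mean of BACH1, with a range that overlapped that of the RWPE-1 metastasis-derived lines.

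To ask what C-Raf does to these genes before metastasis, BPH-1 C-Raf parental cells were compared with vector control. BACH1 rose 1.39-fold and SRXN1 rose 1.28-fold, GCLC rose slightly, and HMOX1 and NQO1 fell. NFE2L2, KEAP1, GCLM, TXNRD1 and SLC7A11 did not pass the test, an edgeR quasi-likelihood fit with Benjamini-Hochberg adjusted p below 0.05 over all genes. The 5 of 10 genes called stood against 59.8% of all 13241 genes tested, and the 3 higher and 2 lower calls against 30.4% higher and 29.4% lower over all genes, so the share of calls was near the background. Spread between libraries was small here, with a common biological coefficient of variation of 2.43%.

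BACH1 was at 48.1, 49.7 and 45.3 CPM in the vector control libraries and at 65.6, 64.3 and 68.9 CPM in the C-Raf libraries. All C-Raf libraries were above all vector control libraries (log2 fold change 0.48 ± 0.04 SE, edgeR adjusted p = 2.35e-11). SRXN1, which reactivates overoxidized peroxiredoxins, was at 69.6, 68.1 and 68.6 CPM in vector control and at 90.6, 84.0 and 87.7 CPM with C-Raf (log2 fold change 0.35 ± 0.03, edgeR adjusted p = 5.83e-10). Its groups were also apart.

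HMOX1 was at 4.84, 4.87 and 4.86 CPM in vector control and at 3.34, 3.24 and 3.74 CPM with C-Raf, a fall of 0.49 ± 0.11 SE on the log2 scale (edgeR adjusted p = 0.000396). The HMOX1 groups did not overlap, although the gene was low in both. GCLC, the catalytic subunit of the enzyme that starts glutathione synthesis, went from 35.8 ± 0.3 to 39.0 ± 0.2 CPM (mean ± SD, n = 3 each; log2 fold change 0.13, edgeR adjusted p = 0.0072). NQO1 went from 89.4 ± 1.6 to 83.3 ± 1.7 CPM (n = 3 each), a fall of 0.10 on the log2 scale (edgeR adjusted p = 0.0104).

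The log2 fold changes of NFE2L2 (0.04, adjusted p = 0.315), KEAP1 (0.07, adjusted p = 0.0571), GCLM (-0.02), TXNRD1 (0.01) and SLC7A11 (0.02) did not pass. Where the metastasis-derived lines entered the fit, so that the spread was shared over all BPH-1 groups, 0 of the 10 genes and 377 of 13775 genes were called by edgeR, with BACH1 at 0.49 (adjusted p = 0.111). The NQO1 call was lost without C-Raf replicate 3 (adjusted p = 0.0527). Marker genes moved in the same comparison: KRT14 rose from 160.7 ± 2.9 to 326.1 ± 6.2 CPM and KRT8 fell from 1391 ± 42 to 992.6 ± 18.1 CPM, the macrophage marker CD68 rose from 13.8 ± 0.96 to 27.8 ± 1.8 CPM, and the fibroblast marker COL1A1 fell from 25.5 ± 1.4 to 11.3 ± 0.1 CPM (n = 3 each; edgeR adjusted p = 1.55e-22, 6.35e-15, 9.20e-15 and 4.76e-16). The summed level went from 16.2 to 18.7 CPM in vector control to 28.8 to 32.8 CPM with C-Raf for the 5 macrophage markers, and from 25.1 to 27.6 CPM to 11.3 to 11.5 CPM for the 5 fibroblast markers, while the 7 epithelial markers summed to 5721 to 5895 and 5809 to 5956 CPM. Their part in the results above was not tested.

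The BPH-1 metastasis-derived lines were then compared with their C-Raf parental cells. BACH1 rose further, by 3.37-fold, and GCLC rose 1.69-fold. NQO1 fell 5.23-fold, KEAP1 fell 2.17-fold and GCLM, the modifier subunit that pairs with GCLC, fell 2.01-fold. HMOX1, NFE2L2, TXNRD1, SRXN1 and SLC7A11 did not pass the test. The 5 genes called, 2 higher and 3 lower, stood against 37.7% of 13465 genes called by edgeR (20.9% higher and 16.8% lower). The median log2 fold change of the 10 genes was -0.34, against 0.08 for all genes tested.

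BACH1 was at 184.1 CPM in R069, 215.0 CPM in R072 and 242.5 CPM in thymus R075, each above the highest C-Raf parental library at 68.9 CPM. The log2 fold change was 1.75 ± 0.18 SE (edgeR adjusted p = 0.00208), which lay at percentile 88.0 of all genes tested. BACH1 spans chr21:29194071-29630751 on the plus strand (GENCODE 29), and other genes of the tables within that span had at most 55 counts in any library.

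NQO1 (chr16:69706996-69726951, minus strand) was at 83.6, 84.9 and 81.5 CPM in C-Raf parental cells and at 21.99, 10.67 and 13.15 CPM in R069, R072 and thymus R075. The groups were far apart, and the log2 fold change of -2.39 ± 0.28 SE (edgeR adjusted p = 0.00274) lay at percentile 1.46 of all genes tested. KEAP1 (chr19:10486120-10503741, minus strand) was at 82.8, 81.3 and 83.9 CPM in C-Raf parental cells and at 41.5, 24.9 and 43.2 CPM in the metastasis-derived lines. The inhibitor was thus lower in every line (log2 fold change -1.12 ± 0.22 SE, edgeR adjusted p = 0.0107), and lowest in R072.

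The 2 subunits of glutamate-cysteine ligase, the first enzyme of glutathione synthesis, moved in opposite directions. GCLM (chr1:93885205-93909456, minus strand) went from 58.1, 56.1 and 59.0 CPM to 26.1, 17.0 and 39.9 CPM (log2 fold change -1.01 ± 0.29 SE, edgeR adjusted p = 0.0376). GCLC (chr6:53497341-53616970, minus strand) went from 39.2, 38.8 and 38.9 CPM to 73.6, 48.3 and 68.1 CPM (log2 fold change 0.76 ± 0.18 SE, edgeR adjusted p = 0.0205). Neither gene's groups overlapped, and R072 had the lowest level of both subunits among the metastasis-derived lines.

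The other genes varied between the lines. TXNRD1 was at 391.1 to 403.2 CPM in C-Raf parental cells and at 129.9, 69.9 and 618.5 CPM in R069, R072 and thymus R075, below the parental range in a pair of lines and above it in the other. TXNRD1 overlaps EID3 and a pseudogene on its own strand, with up to 808 and 851 counts in a library, so its counts are less certain. Without thymus R075 its log2 fold change moved from -0.50 to -1.92 (edgeR adjusted p = 0.00616). SRXN1 was at 58.7, 13.9 and 62.7 CPM, all below the parental 84.0 to 90.6 CPM, with a log2 fold change of -0.91 ± 0.50 SE that did not pass (edgeR adjusted p = 0.195) and one of -0.50 that did without R072 (adjusted p = 0.00369).

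SLC7A11, the cystine importer that supplies glutathione synthesis, was at 101.8, 28.97 and 58.5 CPM against 71.9 to 75.4 CPM in the parental cells, so the groups overlapped. The transcription factor gene NFE2L2 was at 83.7, 47.1 and 114.7 CPM against 83.2 to 90.8 CPM, again with overlap (it overlaps AGPS on the opposite strand, and whether counting used strand is not given in the sources used here; log2 fold change -0.05 ± 0.30 SE, adjusted p = 0.914). HMOX1 was at 2.57, 4.68 and 2.36 CPM against 3.24 to 3.74 CPM (log2 fold change -0.04 ± 0.36 SE, adjusted p = 0.929). R072, which had the lowest NFE2L2, KEAP1, NQO1, TXNRD1, SRXN1 and SLC7A11 of the 3 lines, had the highest HMOX1.

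TMM scaling was large for R072, whose unscaled values were 0.592 times the scaled ones, against 0.947 to 1.10 times in the other BPH-1 libraries. Unscaled, BACH1 stayed above and NQO1 and KEAP1 stayed below the parental range in all 3 lines, but GCLC in R072 (28.6 CPM) was below the parental 41.1 to 41.5 CPM, and HMOX1 was at 2.24 to 2.77 CPM, below the parental 3.45 to 3.995 CPM in each line. The calls for BACH1 and NQO1 held without each library in turn, but that for BACH1 was lost with the 3 low-depth libraries kept (1.24, edgeR adjusted p = 0.269). Those for KEAP1, GCLC and GCLM did not: without any 1 of the C-Raf parental libraries only BACH1 and NQO1 remained called. The edgeR adjusted p was then 0.0513 to 0.0531 for KEAP1, 0.103 to 0.106 for GCLC and 0.101 to 0.109 for GCLM. Their log2 fold changes stayed about as large, at -1.13 to -1.16, 0.73 and -1.01 to -1.05. Over all genes the calls fell from 5078 to between 1961 and 2096 in these fits. The GCLM call was also lost without R069 (log2 fold change -0.96, edgeR adjusted p = 0.111), where 3972 of all genes were called. Across genes, log2 fold changes fell with transcript GC content (Spearman rho -0.22) and rose with transcript length (rho 0.23); less the median of genes of like GC content (decile), the 5 values were 1.29 for BACH1, -2.48 for NQO1, -0.93 for KEAP1, -1.47 for GCLM and 0.67 for GCLC. The luminal keratin KRT8 fell as well, from 992.6 ± 18.1 to 122.9 ± 61.8 CPM (n = 3 each), while the basal keratin KRT14 rose from 326.1 ± 6.2 to 4657 ± 1761 CPM (log2 fold changes -2.96 and 3.91, edgeR adjusted p = 0.00308 and 0.00194). Of 5 fibroblast markers, COL1A1 rose from 11.3 ± 0.1 to 58.9 ± 10.5 CPM. The 5 summed to 11.3 to 11.5 CPM in C-Raf parental libraries and to 51.3 to 72.2 CPM in the metastasis-derived lines. Of 3 endothelial markers 2 were tested, and 1 was called higher and 1 lower. The higher one, VWF, went from 0.76 ± 0.05 to 17.5 ± 19.9 CPM, with wide spread between the lines. The 3 endothelial markers summed to 1.57 to 1.62 CPM in C-Raf parental libraries and to 2.51 to 40.6 CPM in the metastasis-derived lines. The 5 macrophage markers summed to 28.8 to 32.8 CPM before, most of it CD68, and 10.4 to 26.9 CPM after, while CSF1R among them rose from 0.999 ± 0.345 to 2.82 ± 0.65 CPM (log2 fold change 1.55, edgeR adjusted p = 0.0237). The noncoding RNA RN7SL1 took 13.1%, 30.3% and 4.60% of all counts in R069, R072 and thymus R075, against at most 0.0093% in each of the other 18 libraries, so it was highest in R072, the line with the lowest KEAP1 and NQO1. The part of RN7SL1 and of these marker changes in the results above was not tested.

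**Figure D2:**
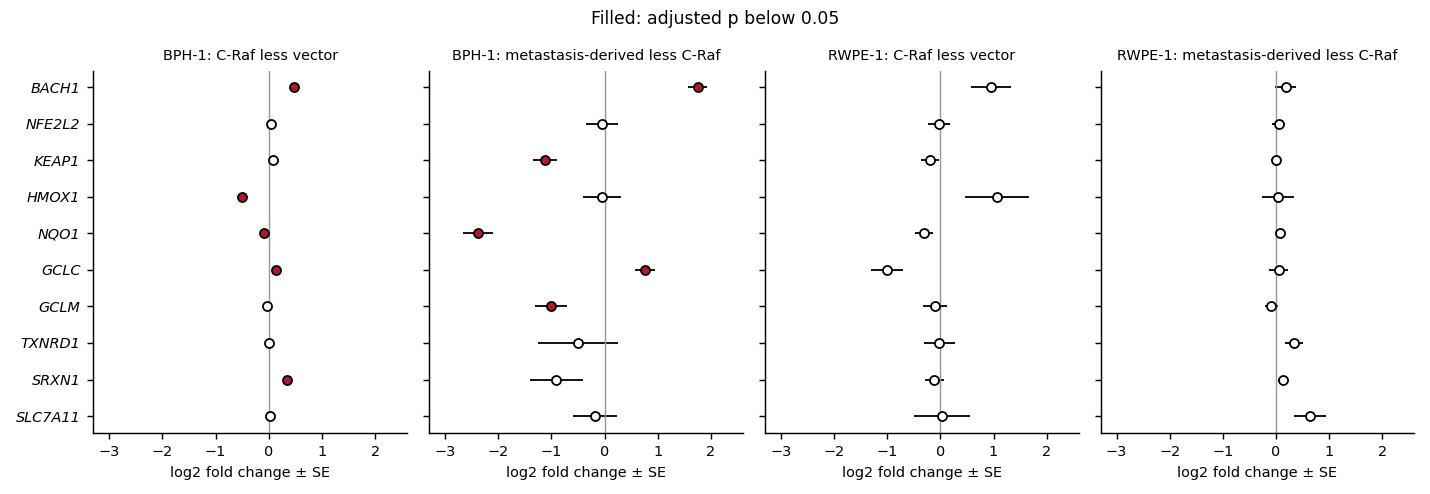
Log2 fold change with SE (edgeR) of the 10 genes in the 4 comparisons within a cell line; filled points have an adjusted p below 0.05. The BPH-1 metastasis-derived lines show the largest calls, BACH1 at 1.75 and NQO1 at -2.39, and neither RWPE-1 comparison has a call.

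KEAP1 and GCLM fell together in the BPH-1 lines, and their promoters were read for the core of the antioxidant response element, TGACNNNGC, on both strands. RefSeq windows of the 250 bases before each start (GRCh38.p14) were at hand for 8 members in 13 windows, and HMOX1 and SLC7A11 have none. The core was found for 3 members, KEAP1, GCLM and TXNRD1, in 4 windows, and in 10.9% of all 35116 windows. BACH1, NFE2L2, NQO1, GCLC and SRXN1 do not hold these letters in the windows read. All 250 bases of the NQO1 window lie within annotated exon, so no sequence before the GENCODE start of NQO1 was read. Annotated exon also covers 170 bases of the SRXN1 window and all 250 of a NFE2L2 window. Sequence further upstream was not read for any gene. The stretches that hold it follow in 5′ to 3′ direction on the strand of the gene, which is minus for KEAP1 and GCLM and plus for TXNRD1, with the core in capitals. Within exons of other transcripts 30 bases are shown.
KEAP1, chr19:10502783-10502812: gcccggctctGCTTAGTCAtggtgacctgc
GCLM, chr1:93909456-93909680: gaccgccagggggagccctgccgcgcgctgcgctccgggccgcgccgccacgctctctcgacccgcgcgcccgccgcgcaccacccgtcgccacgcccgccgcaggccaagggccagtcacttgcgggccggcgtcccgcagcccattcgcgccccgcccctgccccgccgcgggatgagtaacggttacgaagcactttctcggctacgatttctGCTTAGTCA
TXNRD1, chr12:104215529-104215778: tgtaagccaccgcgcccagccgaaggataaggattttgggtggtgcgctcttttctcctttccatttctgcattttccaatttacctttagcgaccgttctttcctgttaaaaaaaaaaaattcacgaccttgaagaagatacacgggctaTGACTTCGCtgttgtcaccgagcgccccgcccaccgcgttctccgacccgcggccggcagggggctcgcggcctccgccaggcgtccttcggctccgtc
TXNRD1, chr12:104286920-104286949: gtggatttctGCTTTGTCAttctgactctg
The same 9 bases, GCTTAGTCA (TGACTAAGC on the opposite strand), stood 34 to 26 bases before the GCLM start and 31 to 23 bases before the KEAP1 start. A further KEAP1 match, TGACACGGC, lay 54 to 46 bases before that start. The TXNRD1 matches differed from these and from each other, TGACTTCGC and GCTTTGTCA. A match is a description of the sequence and no evidence of binding here.

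Whether the metastasis effect differed between the cell lines was tested as an interaction over the 21 libraries. It differed for 5 genes, BACH1, KEAP1, NQO1, GCLM and SRXN1, against 46.5% of 15256 genes (24.4% more positive and 22.1% more negative in BPH-1). The difference, BPH-1 less RWPE-1 on the log2 scale, was 1.51 ± 0.28 SE for BACH1 (edgeR adjusted p = 0.000267) and -2.51 ± 0.24 for NQO1 (adjusted p = 3.59e-07). It was -1.16 for KEAP1 (adjusted p = 0.000177), -0.96 for GCLM (adjusted p = 0.0079) and -1.09 for SRXN1 (adjusted p = 0.0318). GCLC, at 0.65, just missed the threshold (adjusted p = 0.0544), and DESeq2 called it (0.0186). With the low-depth libraries kept, BACH1 was at 1.26 and no longer passed (adjusted p = 0.0672), while HMOX1 turned from -0.16 to 3.47 and passed (adjusted p = 0.0472). The corresponding test of the C-Raf effect called 0 of the 10 genes by edgeR and by DESeq2 (0.452% of all genes passed edgeR). An unadjusted edgeR p below 0.05 was held by 1886 of 15256 genes and by 2 of the 10. The 2 were GCLC at 1.12 ± 0.35 SE (adjusted p = 0.169) and HMOX1 at -1.57 ± 0.65 (adjusted p = 0.318).

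In RWPE-1, C-Raf parental cells were compared with the single vector control library, whose spread was assumed to be that of the other RWPE-1 groups. By edgeR 0 of the 10 genes and 0.396% of 13897 genes passed. At an unadjusted edgeR p below 0.05 were 2 of the 10 genes and 2506 of the 13897. DESeq2 called 1 of the 10 genes and 808 of the 13897. BACH1 was at 72.2 CPM in vector control and at 79.6, 119.6, 178.1 and 179.4 CPM in C-Raf replicates 1 to 4. All C-Raf libraries were above the control, but replicate 1, which shares its table, was only slightly above it. The log2 fold change of BACH1 was 0.95 ± 0.37 SE (adjusted p = 0.219), 0.14 with replicate 1 alone, and 1.14 without it, where it passed (adjusted p = 0.0226).

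GCLC was at 129.1 CPM in vector control and at 76.3, 72.1, 54.7 and 55.1 CPM with C-Raf, lower in all 4 libraries (log2 fold change -0.997 ± 0.30 SE, edgeR adjusted p = 0.152, DESeq2 adjusted p = 0.046). Without replicate 1 edgeR called it too (-1.09, adjusted p = 0.0492). HMOX1 was at 0.77 CPM in vector control and at 1.02, 1.64, 2.08 and 1.69 CPM with C-Raf, higher in all 4 libraries with a log2 fold change of 1.07 ± 0.60 SE that did not pass (adjusted p = 0.352). NQO1 was at 190.5 CPM and then at 161.2, 172.8, 134.8 and 147.4 CPM, lower in all 4 libraries (-0.30 ± 0.17 SE, adjusted p = 0.364). KEAP1, at 85.4 CPM in vector control and 68.5 to 81.2 CPM with C-Raf, was also lower in each (adjusted p = 0.555), and the other 5 genes had log2 fold changes between -0.11 and 0.03. A single control library limits what can be said of any of these differences. The 7 epithelial markers summed to 13020 CPM in vector control and to 3938 to 9633 CPM with C-Raf. The 5 macrophage markers summed to 36.4 CPM and to 59.7 to 141.8 CPM, and the 5 fibroblast markers to 7.86 CPM and to 9.30 to 22.1 CPM. The part of these markers in the differences was not tested.

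The RWPE-1 metastasis-derived lines were compared with their C-Raf parental cells, and no gene passed the test. By edgeR 0 of 10 genes passed, with 0 at an unadjusted p below 0.05, and 0 passed DESeq2. Over all genes 0.0985% of 13200 passed edgeR, 1040 had an unadjusted edgeR p below 0.05, and 176 passed DESeq2. BACH1 in the 7 lines was lowest at 124.8 CPM (LN1A), with a median of 154.0 and a highest value of 192.3 CPM (Bone5), against 79.6 to 179.4 CPM in C-Raf cells. The ranges overlapped, the log2 fold change was 0.18 ± 0.20 SE, and it turned to -0.01 without C-Raf replicate 1. Within tables, BACH1 was at 79.6 CPM in C-Raf replicate 1 against 124.8 to 152.2 CPM in LN1A, LN1B and Spine, and at 119.6 to 179.4 CPM in replicates 2 to 4 against 154.0 to 192.3 CPM in the 4 other lines.

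NQO1 was at 135.4 CPM at the lowest, 162.8 CPM at the median and 195.8 CPM at the highest of the 7 lines, within or near the 134.8 to 172.8 CPM of C-Raf cells (log2 fold change 0.07 ± 0.10 SE). SLC7A11 was at 24.7, 33.2 and 82.2 CPM (lowest, median, highest) against 19.8 to 29.7 CPM, and 1 line, Bone4, held the highest value. Its log2 fold change was 0.63 ± 0.30 SE (adjusted p = 0.639), and it was 0.32 without Bone4. TXNRD1 was at 181.5, 232.8 and 309.9 CPM against 159.9 to 220.5 CPM (0.34 ± 0.17 SE, adjusted p = 0.652). The remaining log2 fold changes lay between -0.09 for GCLM and 0.14 for SRXN1. Bone4 also had the highest NFE2L2 (188.1 CPM) and the lowest KEAP1 (56.8 CPM) of the 7 lines.

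The cell lines themselves differed in most of these genes, as in most genes. Among C-Raf parental cells 9 of 10 differed between RWPE-1 and BPH-1 by edgeR, against 73.9% of 13543 genes (37.9% higher and 35.9% lower in RWPE-1). BACH1, NFE2L2, NQO1 and GCLC were higher in RWPE-1, by 1.07, 0.64, 0.89 and 0.73 on the log2 scale. SLC7A11, HMOX1, TXNRD1, GCLM and SRXN1 were lower, at -1.59, -1.09, -1.07, -1.01 and -0.34, with edgeR adjusted p between 1.75e-05 for SLC7A11 and 0.00836 for BACH1 among the 9. KEAP1 did not pass (-0.14, adjusted p = 0.106) except without RWPE-1 C-Raf replicate 1 (-0.19, adjusted p = 0.0296). The cell lines were grown in different media and came in different tables, so cell line, medium and table cannot be told apart. Marker genes differed as well, and their part was not tested. In BPH-1 and RWPE-1 C-Raf cells mean CPM were 326.1 and 2458 for KRT14, 992.6 and 206.7 for KRT8, and 211.8 and 90.0 for EPCAM. The macrophage markers CD68 and CD14 went opposite ways, at 27.8 and 101.8 and at 2.44 and 1.17 CPM. Log2 fold changes between the lines also fell with GC content (rho -0.32), and less the median of genes of like GC content BACH1 was at 0.50, GCLM at -1.58, SRXN1 at -0.15 and KEAP1 at 0.26.

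Ordered by level, the 6 groups ran for BACH1 from BPH-1 metastasis-derived lines (213.8 ± 29.2 CPM, n = 3) over RWPE-1 metastasis-derived lines (158.0 ± 21.7, n = 7), RWPE-1 C-Raf cells (139.2 ± 48.5, n = 4), RWPE-1 vector control (72.2, n = 1) and BPH-1 C-Raf cells (66.3 ± 2.3, n = 3) to BPH-1 vector control (47.7 ± 2.2, n = 3). The ranges of the first 3 groups overlapped with their neighbors, and the others did not. For NQO1 the 3 RWPE-1 groups came first. The range of the RWPE-1 metastasis-derived lines overlapped vector control (190.5 CPM) and C-Raf cells (134.8 to 172.8 CPM), which did not overlap each other. The BPH-1 groups followed without overlap, with the metastasis-derived lines last (15.3 ± 6.0 CPM, n = 3). GCLC was highest in RWPE-1 vector control and lowest in BPH-1 vector control (35.8 ± 0.3 CPM, n = 3), and the metastasis-derived lines of both cell lines overlapped at 63.3 ± 13.3 (BPH-1, n = 3) and 66.9 ± 15.5 CPM (RWPE-1, n = 7). NFE2L2 separated the cell lines only: the RWPE-1 groups had means of 135.8 to 140.2 CPM with overlapping ranges, and the BPH-1 groups had means of 81.8 to 87.6 CPM with overlapping ranges.

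With both cell lines in a model that keeps a cell line term, 0 of 10 genes passed for C-Raf against vector control by edgeR and by DESeq2. By edgeR 0.813% of 15256 genes were called, and 1 of the 10 genes and 1435 over all genes had an unadjusted p below 0.05. BACH1 came closest, at 0.90 ± 0.29 SE (adjusted p = 0.198). For metastasis-derived against C-Raf cells edgeR called 0 of 10 and 2.53% of all genes, with BACH1 at 0.72 ± 0.22 SE (adjusted p = 0.0763). An unadjusted edgeR p below 0.05 was held by 4 of the 10 genes and by 4169 of 15256 over all genes. BACH1 was called by DESeq2 (0.74, adjusted p = 0.0295) and when all symbols were tested (0.65, adjusted p = 0.0444), but not with the low-depth libraries kept (0.68, adjusted p = 0.209).

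Levels of the genes were also compared with each other over the 21 libraries, as log2 CPM centered within each cell line. These correlations are descriptions; libraries of a group share their table and much of their deviation, and the 3 BPH-1 metastasis-derived lines weigh heavily. KEAP1 went with NQO1 (r = 0.94) and with GCLM (r = 0.92), and BACH1 went against NQO1 (r = -0.87) and KEAP1 (r = -0.84). Within the 12 RWPE-1 libraries these 4 values were 0.60, 0.44, -0.41 and -0.59. GCLC and HMOX1 went against each other in both cell lines, at -0.79 over 9 BPH-1 libraries and -0.87 over 12 RWPE-1 libraries. In RWPE-1 the single vector control had the highest GCLC and the lowest HMOX1 (129.1 and 0.77 CPM). Spine2 had the lowest GCLC and the highest HMOX1 (42.2 and 3.26 CPM), so these libraries weigh heavily there. BACH1 and HMOX1, the repressor and its best known target, were at -0.61 in BPH-1 and at 0.66 in RWPE-1.

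**Figure D3:**
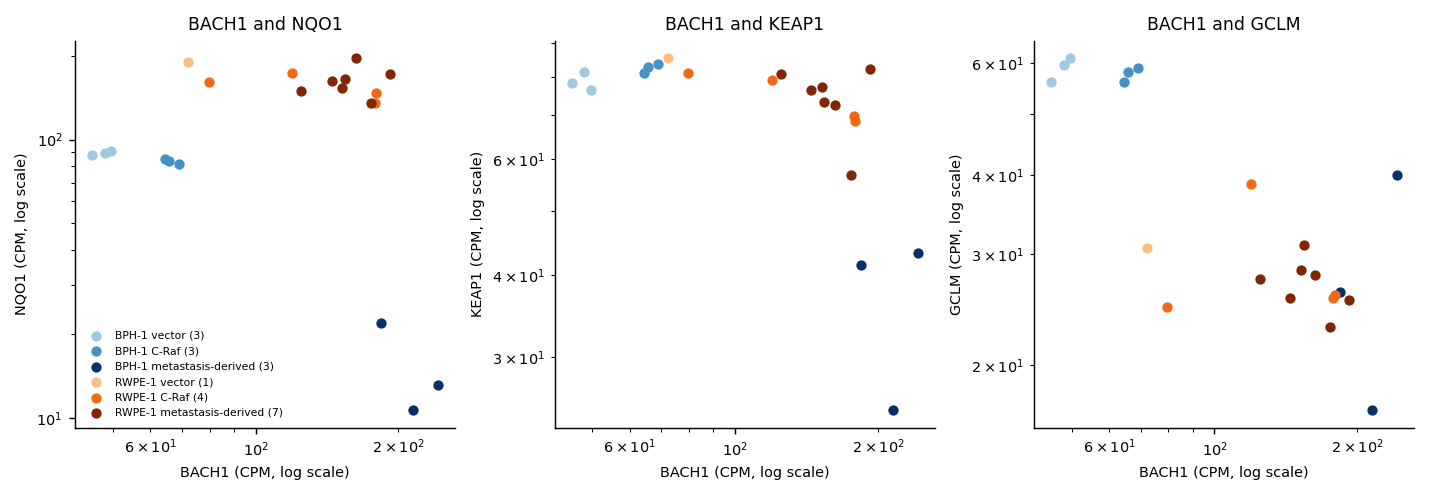
BACH1 against NQO1, KEAP1 and GCLM in 21 libraries, in CPM on log axes, with libraries colored by group and their number in brackets. The 3 BPH-1 metastasis-derived lines lie at 184.1 to 242.5 CPM of BACH1 and below every other library in NQO1 and KEAP1.

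Among 12627 coding genes with a mean of at least 1 CPM, the genes whose centered levels were most like those of BACH1 were SLPI, CDK17 and ABCA13 (r = 0.96, 0.95 and 0.95). They were ELAVL1, TXNDC5 and COTL1 for KEAP1 (0.99 each), IVD, WDR18 and WBSCR16 for NQO1 (0.99, 0.99 and 0.98, but 0.36, 0.76 and 0.47 within the 12 RWPE-1 libraries) and RAB7A, COPB2 and AK4 for GCLM (0.98, 0.96 and 0.96, and 0.91, 0.68 and 0.79 within RWPE-1). Those most like NFE2L2 were SLC31A1, OSGIN2 and XBP1 (0.93, 0.93 and 0.92), and those most like HMOX1 were MYEF2, GIT2 and BRSK2 (0.88, 0.86 and 0.85). For GCLC they were FAM185A, SNX4 and SMAP1 (0.88, 0.88 and 0.87), for TXNRD1 BFAR, MAT2A and PIM2 (0.95 each, and 0.60, 0.60 and 0.67 within RWPE-1), for SRXN1 DHX33, POLR1B and ALG2 (0.98 each), and for SLC7A11 TCF12, LMBR1 and CYP4V2 (0.83, 0.83 and 0.82). Within RWPE-1 the genes named for the other members had r of 0.76 to 0.97. No member was among the 3 genes most like another member.

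Of 18 partners and regulators of the pathway, 6 rose and 4 fell from vector control to C-Raf in BPH-1, near the shares of 30.4% higher and 29.4% lower over all genes. The small MAF genes MAFF and MAFK rose, from 28.8 ± 0.8 to 39.9 ± 1.6 CPM and from 73.7 ± 0.7 to 88.6 ± 1.8 CPM (n = 3 each; log2 fold changes 0.48 and 0.27, edgeR adjusted p = 1.89e-10 and 3.00e-08). TRIM21, an E3 ubiquitin ligase, fell by 0.30 on the log2 scale (adjusted p = 7.66e-05). In the BPH-1 metastasis-derived lines 1 of 18 rose and 1 fell, against 20.9% higher and 16.8% lower over all genes: DPP3, whose protein binds KEAP1, went from 83.5 ± 1.7 to 37.4 ± 2.3 CPM (log2 fold change -1.10, adjusted p = 0.0037), and PALB2, another KEAP1-binding protein, went from 41.9 ± 0.5 to 61.5 ± 9.0 CPM (0.61, adjusted p = 0.0241; n = 3 each). BACH2, the paralog of BACH1, was at 11.4 ± 1.1 CPM (n = 4) in RWPE-1 C-Raf cells and at 0.71 ± 0.05 CPM (n = 3) in BPH-1 C-Raf cells (log2 fold change 3.99, adjusted p = 6.98e-07).

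Of 30 further NRF2 target genes, 12 rose and 11 fell in BPH-1 from vector control to C-Raf (30.4% and 29.4% over all genes). AKR1C2, AKR1C1 and AKR1C3, aldo-keto reductases with near-identical sequences whose reads may be shared between them, rose from 0.52 to 2.36, 1.33 to 4.42 and 1.15 to 3.08 mean CPM (log2 fold changes 2.19, 1.76 and 1.43). In the metastasis-derived lines 3 rose and 12 fell of 30 (20.9% and 16.8% over all genes), with a median log2 fold change of -0.69 against 0.08 for all genes. FTL, the ferritin light chain, fell from 606.6 ± 17.2 to 85.5 ± 28.2 CPM (log2 fold change -2.77, adjusted p = 0.00204), and the iron-binding protein gene PIR fell from 18.0 ± 0.4 to 4.08 ± 1.80 CPM (-2.08, adjusted p = 0.00686). AKR1B10, another aldo-keto reductase, rose from 0.81 ± 0.05 to 18.2 ± 8.4 CPM (4.54, edgeR adjusted p = 0.00204; n = 3 each). The targets therefore included genes that moved as NQO1 did and genes that moved against it.

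Of 21 glutathione, thioredoxin and peroxide enzymes, 12 rose and 3 fell in BPH-1 with C-Raf (30.4% and 29.4% over all genes), led by the glutaredoxins GLRX and GLRX2 (log2 fold changes 0.68 and 0.58) and the peroxiredoxin PRDX5 (0.39). In the metastasis-derived lines 0 rose and 8 fell (20.9% and 16.8% over all genes), with a median of -0.80. CHAC1, which degrades glutathione, fell by 2.53 on the log2 scale (adjusted p = 0.0458), PRDX6 fell by 1.495 (adjusted p = 0.0225) and PRDX2 fell by 1.45 (edgeR adjusted p = 0.00696). Of the heme and iron genes 7 of 11 rose and 3 fell with C-Raf (30.4% and 29.4% over all genes), among them the heme exporter FLVCR1 (0.57) and ALAS1, the first enzyme of heme synthesis (0.35), both higher, and BLVRA, which acts after heme oxygenase, lower (-0.38). In the metastasis-derived lines 1 of 10 rose, FLVCR1 again (0.80, adjusted p = 0.0116), and 3 fell (20.9% and 16.8% over all genes), among them the transferrin receptor TFRC (-1.14, adjusted p = 0.00859) and the constitutive heme oxygenase HMOX2 (-0.73, edgeR adjusted p = 0.0376).

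Of 6 tested genes linked to BACH1 in metastasis, 2 rose and 0 fell with C-Raf (30.4% and 29.4% over all genes), the collagenase MMP1 (from 3.16 ± 0.11 to 62.2 ± 1.6 CPM, log2 fold change 4.30) and the chromatin protein HMGA2 (from 172.5 ± 3.1 to 504.6 ± 11.2 CPM, 1.55; n = 3 each, edgeR adjusted p = 5.19e-29 and 2.46e-26). In the metastasis-derived lines 3 of 7 rose, VIM, MMP13 and MMP1, at log2 fold changes of 6.17, 4.11 and 2.44, and 1 fell (20.9% and 16.8% over all genes). MMP1 reached 326.8 ± 187.5 CPM and VIM, the intermediate filament vimentin, 11.6 ± 11.2 CPM (n = 3 each), with wide spread between the lines. In RWPE-1, VIM was the only gene of these 5 lists called for C-Raf (from 292.9 CPM to 1107 ± 146 CPM, n = 1 and 4, log2 fold change 1.92, edgeR adjusted p = 0.0322), and none of the 5 lists had a call by edgeR between RWPE-1 metastasis-derived and C-Raf cells. These lists overlap in function with the 10 genes and were chosen with earlier results known, so their counts describe them only.

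**Figure D4:**
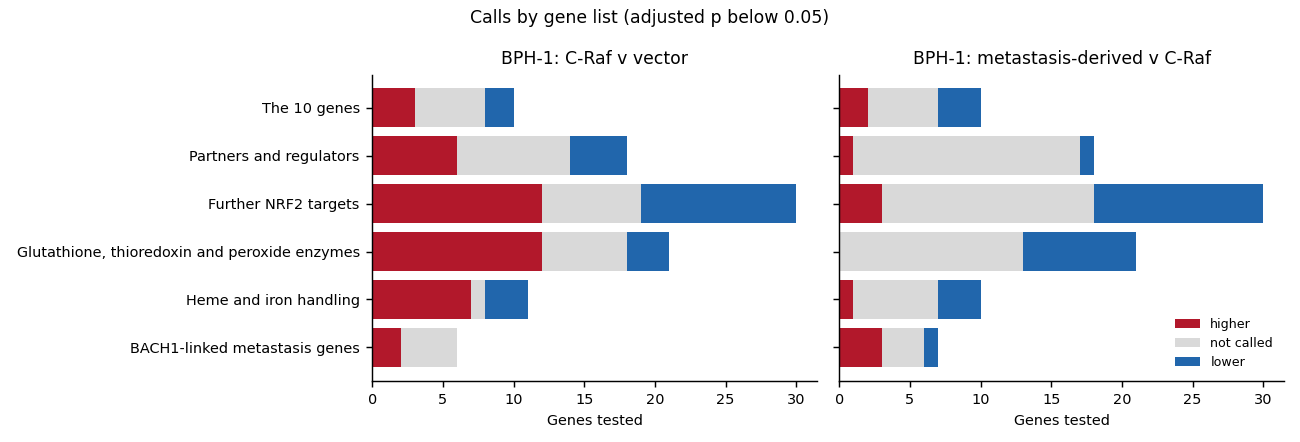
Number of genes higher (red), not called (gray) and lower (blue) by edgeR at an adjusted p below 0.05 in each list, for both BPH-1 comparisons. In the metastasis-derived lines 0 of 21 glutathione, thioredoxin and peroxide enzymes were higher and 8 were lower.

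The low-depth libraries could only be read for single genes. In bone R071, 56 of 464769 protein-coding counts were HMOX1, or 120.5 CPM without TMM scaling (95% Wilson interval 92.8 to 156.4, counting error only), whereas none of the 21 libraries exceeded 5.37 CPM on the same unscaled basis. In the same library BACH1 had 59 counts (126.9 CPM, interval 98.4 to 163.7). NQO1 had 0 counts there, which allows up to 6.45 CPM at 3 counts (Wilson upper limit 8.27 CPM). HBB had 15 counts, COL1A1 57, PECAM1 8 and CD68 14 there, while CD163, CD14, LYZ, CSF1R and PTPRC had 0, and their part in the HMOX1 value was not tested. In bone R074 and the library titled bone R075 HMOX1 had 1 count each, with upper limits of 42.8 and 50.9 CPM. BACH1 had 7 counts in R074 (52.9 CPM, interval 25.6 to 109.1). It had 0 in bone R075, which allows up to 26.98 CPM at 3 counts (Wilson upper limit 34.5 CPM). Its unscaled values were 185.6, 127.4 and 229.6 CPM in R069, R072 and thymus R075 and 68.5 to 73.5 CPM in C-Raf parental cells. The limits given for low-depth libraries cover counting error only. Bone R075 had 0 counts of 6 of the 10 genes (BACH1, NFE2L2, KEAP1, NQO1, GCLC and SRXN1) and R074 had 0 of 3 (NFE2L2, GCLM and SLC7A11). The BACH1 and HMOX1 values of these libraries were therefore not read as levels of the cells. When the 3 libraries entered the BPH-1 comparison, the log2 fold change of HMOX1 turned from -0.04 to 3.52 (edgeR adjusted p = 0.0866). NQO1 alone of the 10 genes stayed called, at -2.77, while calls over all genes fell from 5078 of 13465 to 2097 of 13542. The log2 fold changes were 1.24 for BACH1 (edgeR adjusted p = 0.269), -1.42 for KEAP1, -1.21 for GCLM and 0.49 for GCLC.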

How the data were processed

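RNA-seq of 24 libraries was analysed. The authors deposited RSEM expected counts per gene symbol in 4 tables, unscaled and unfiltered, 1 column per library; the submitters' processing notes name cutadapt, FastQC, STAR, RSEM and hg38, and the study's methods name the TOIL pipeline. The annotation, the strand setting and any separation of mouse reads are not given in the sources used here. All columns were assigned to a library (0 left over). Estimated counts were rounded, and 19263 protein-coding symbols (GENCODE 29, RefSeq) were kept. The 3 low-depth libraries were left out of the main tests because RN7SL1 took 93.3% to 97.5% of their counts, against 4.60% to 30.3% in R069, R072 and thymus R075 and at most 0.0093% in the remaining 18.

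Genes passing filterByExpr were scaled by TMM and tested by edgeR 4.0.16 (R 4.3.3) quasi-likelihood fits, with Benjamini-Hochberg adjustment over all genes and a threshold of 0.05. Each comparison used its 2 groups, except that RWPE-1 C-Raf against vector control used all RWPE-1 libraries, and the models of both cell lines used 21. Log2 CPM had a prior count of 2. Fits were tested on simulated data. Depth limits the precision of low genes such as HMOX1 (97 to 175 counts in BPH-1 vector control and C-Raf libraries) and of all genes in the low-depth libraries. Alternatives were RLE scaling, no filter, DESeq2 1.42.0, all symbols, other sets of libraries, table terms, a replicate block, each library left out, and ComBat-seq (sva 3.50.0) before DESeq2; subtraction of the median change of genes of like GC content or length was chosen after seeing the data. The members and lists were chosen with earlier results of these data known. Named genes are all 10 members, up to 3 called genes of each list with the largest change and a mean of at least 1 CPM, marker genes, and the 3 genes most like each member.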

Additional observations from a re-analysis of the deposited data

Results flagged for a closer look

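Of 20 sets of values examined (10 genes in the RWPE-1 C-Raf and metastasis-derived groups), 5 had 1 library far from the others, where chance gives about 1 in 20. The rule did not allow for the tables, although both groups span more than 1. NFE2L2 was at 120.5 CPM in RWPE-1 C-Raf replicate 1, the only library of that group in its table. The next value of that group was 139.4 CPM. GCLM was at 38.7 CPM in RWPE-1 C-Raf replicate 2, and the next was 25.8 CPM. Among the RWPE-1 metastasis-derived lines KEAP1 was at 56.8 CPM in Bone4 (next 72.6), SLC7A11 was at 82.2 CPM in Bone4 (next 34.4), and HMOX1 was at 3.26 CPM in Spine2 (next 1.58).

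The change from C-Raf parental to metastasis-derived cells differed between the cell lines by the edgeR interaction test for 5 of the 10 genes. Over all genes it differed for 46.5% of 15256. With the low-depth libraries kept, BACH1 no longer passed (edgeR adjusted p = 0.0672) and HMOX1 did (edgeR adjusted p = 0.0472). The difference, BPH-1 less RWPE-1 on the log2 scale, was 1.51 for BACH1, -1.16 for KEAP1, -2.51 for NQO1, -0.96 for GCLM and -1.09 for SRXN1. Cell line and table cannot be told apart in it.

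HMOX1 was at 120.5 CPM (56 counts) in the low-depth library bone R071, without TMM scaling, above the 5.37 CPM that was its highest unscaled value in the 21 libraries.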

How the results depend on the processing

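Of 775 values of 68 gene results under the alternatives, 685 kept their direction and side of the threshold, 21 lost a call, 14 gained one, 41 changed sign and 14 moved with no test. The number of the 10 genes called in BPH-1 for C-Raf went from 5 to 0 in 1 fit of all BPH-1 groups. In that fit 377 of all genes were called against 7918. The number was 4 to 6 with a library left out (7293 to 7644 of all genes). For BPH-1 metastasis it went from 5 to 1 with the low-depth libraries kept, where 2097 of all genes were called against 5078. It was 2 to 6 with a library left out (2 without each C-Raf library), with 1961 to 8321 of all genes called. For RWPE-1 C-Raf it went from 0 to 1 with DESeq2 and was 0 to 2 with a library left out (18 to 1446 of all genes against 55; 808 with DESeq2). For RWPE-1 metastasis it was 0 throughout, while genes called went from 13 to 176 with DESeq2, 20 with all symbols, 181 and 2 within tables, and 4 to 40 with a library left out. Over both lines it went from 0 to 1 for metastasis with DESeq2 (954 genes against 386) and with all symbols (1781 genes), and genes called for C-Raf went from 124 to 453 with DESeq2 and 37 with low depth kept. Genes whose C-Raf effect differed between lines went from 69 to 507 with DESeq2, 45 with all symbols and 37 with low depth kept. Between the cell lines 9 to 10 genes were called with a library left out. RLE scaling moved the median of all genes in the test of differing metastasis effects from 0.09 to 0.17.

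Signs changed as follows, and the cause was not tested. With low-depth libraries kept, HMOX1 was at 3.52 for BPH-1 metastasis and 3.47 for its difference between lines, where it was called (adjusted p = 0.0472). For RWPE-1 C-Raf, with a table term and within the table, TXNRD1 was at 0.30 and 0.16, SRXN1 at 0.051 and 0.0088, and SLC7A11 at -0.33 and -0.28. For RWPE-1 metastasis within the first table NQO1 was at -0.057 and GCLM at 0.13, and GCLC was at -0.029 with a table term and -0.061 within the other table. Less the median of genes of like GC content, HMOX1 for BPH-1 metastasis was at 0.10 and KEAP1 between cell lines at 0.26, and of like length NFE2L2 was at 0.061 and HMOX1 at 0.25 for BPH-1 metastasis. With a library left out, values for BPH-1 C-Raf ran from -0.059 to 0.00013 for GCLM, -0.0095 to 0.025 for TXNRD1 and -0.031 to 0.10 for SLC7A11. For BPH-1 metastasis they ran from -0.35 to 0.21 for NFE2L2, -0.45 to 0.13 for HMOX1 and -0.70 to 0.15 for SLC7A11. For RWPE-1 C-Raf they ran from -0.055 to 0.022 for NFE2L2, -0.10 to 0.056 for TXNRD1 and -0.067 to 0.13 for SLC7A11. For RWPE-1 metastasis they ran from -0.0098 to 0.33 for BACH1, -0.039 to 0.088 for NFE2L2, -0.047 to 0.047 for KEAP1, -0.21 to 0.18 for HMOX1, -0.028 to 0.14 for GCLC and -0.16 to 0.086 for GCLM.

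With a replicate block, 5 genes were called for BPH-1 C-Raf, as without it (7687 of all genes against 7918). Deviations of same-numbered libraries from their group means correlated at r of -0.16, -0.06 and -0.12. Those of differently numbered libraries were at -0.03 to 0.13. With so few libraries these values cannot show whether same-numbered ones share a batch. Low-depth libraries limit what can be said of the BPH-1 metastases they came from.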
